A study of Mus musculus with 22 samples.

Results

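White fat identity genes are transcripts that white adipocytes, or the precursors that form them, carry at higher levels than brown adipocytes. The 8 members Hoxc8, Hoxc9, Hoxc10, Tcf21, Agt, Slc7a10, Nnat and Mest were taken by name as known genes of white fat, out of 55487 gene identifiers in the count tables. The rule used no threshold on the measured values. They were followed in brown adipose tissue (BAT) of mice with and without CPEB2, an RNA-binding protein that regulates translation of its target mRNAs. RNA-seq had been run on 22 libraries in 6 groups. The untreated cohort held 5 wild-type (WT) and 5 CPEB2-KO mice on a C57BL/6 background, and the BAT was collected at 21 to 25 weeks of age. In the adeno-associated virus (AAV) cohort, 16-week-old WT and CPEB2-KO mice received AAV-GFP or AAV-PRDM16 in the BAT and the tissue was taken 9 weeks later, with 3 mice in each of the 4 groups. All mice were labelled male and were fed chow, but the sex-linked transcripts of 6 untreated libraries looked female. Untreated WT replicate 4 and KO replicate 2 held Y-linked transcripts together with some Xist, an X-linked RNA that was high in those 6. The study states that the untreated mice were food-deprived for some hours before collection, and states no fast for the AAV cohort. The knockout was in the whole body, so any difference between genotypes may arise in any cell of the depot or outside it. AAV-PRDM16 carried the coding region of mouse PRDM16 with a 3Xflag tag, and AAV-GFP was its control in both genotypes. In whole tissue, fewer cells of a type and less RNA per cell cannot be told apart.

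White adipocytes store triglyceride in a single droplet and secrete hormones such as leptin, whereas brown adipocytes burn fuel to make heat. The fat depots keep a positional memory in their HOX genes, and HOXC genes of the 5′ side are used in posterior white depots far more than in the interscapular brown depot. PRDM16 is a transcriptional regulator that drives the brown fat program and represses white fat and muscle genes. The comparisons ask whether white fat genes are higher without CPEB2 and lower with added PRDM16. MEST and NNAT are made from imprinted genes, of which only the paternal copy is transcribed, and Mest is known to rise when adipocytes enlarge.

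The regulatory sequence in front of the members differed in type. RefSeq windows of GRCm38.p6, running from 250 bases before to 50 bases after each annotated start, were matched for 5 members (7 windows); Hoxc8, Hoxc9 and Hoxc10 had no window in the table used. The median window among 32851 held 7 CG dinucleotides. The Mest window at chr6:30737800-30738099 (plus strand) held 17, as did the Nnat window at chr2:157559828-157560127 (plus strand), and 31.4% of all windows held at least as many. A further Mest window covers another annotated start, at chr6:30733256-30733555 (plus strand), and held 8, with at least as many in 48.6% of windows, and the window of a start 3 bases from the printed one also held 17. The Agt window at chr8:124569657-124569956 (minus strand) held 1, and 94.6% of windows held at least as many. It also contained TATAAA on the gene's own strand, 30 bases before the start, which 8.32% of windows contained on that strand. No other window of a member held TATAAA on either strand, against 13.6% of all windows. The windows of Mest, Nnat and Agt are shown because these 3 members had their highest untreated levels in the same 2 mice, while their windows differ in CG content and in the TATAAA match. CG dinucleotides are in capitals, each sequence reads 5′ to 3′ on the strand of its gene, and a match to a motif describes the letters only.
Mest: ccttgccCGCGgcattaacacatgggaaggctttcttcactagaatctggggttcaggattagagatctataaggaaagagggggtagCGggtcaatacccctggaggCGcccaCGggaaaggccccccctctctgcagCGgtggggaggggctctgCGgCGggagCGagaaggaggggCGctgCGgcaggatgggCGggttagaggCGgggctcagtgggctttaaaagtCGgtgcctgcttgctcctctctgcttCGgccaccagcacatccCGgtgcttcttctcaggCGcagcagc
Nnat: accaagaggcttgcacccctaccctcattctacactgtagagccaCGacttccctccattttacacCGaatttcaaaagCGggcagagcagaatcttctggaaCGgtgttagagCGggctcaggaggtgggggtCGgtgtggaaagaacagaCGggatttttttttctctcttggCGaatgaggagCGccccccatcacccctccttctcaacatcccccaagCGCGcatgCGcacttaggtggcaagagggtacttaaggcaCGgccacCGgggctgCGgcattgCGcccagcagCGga
Agt: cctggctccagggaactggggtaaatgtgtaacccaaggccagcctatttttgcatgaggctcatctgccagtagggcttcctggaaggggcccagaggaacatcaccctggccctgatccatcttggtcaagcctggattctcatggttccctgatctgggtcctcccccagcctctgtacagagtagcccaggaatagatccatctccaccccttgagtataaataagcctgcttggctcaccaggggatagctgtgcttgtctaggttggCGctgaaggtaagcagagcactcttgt

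The depth of the libraries was high but the counts were not simple. Untreated libraries held 55320927 to 162721202 counts and AAV libraries 61636889 to 143005309, of which mitochondrial genes took 24.6% to 38.9% and 29.6% to 36.9%. In WT replicates 1 and 2 of the untreated cohort and in all 12 AAV libraries, 1.59 to 2.40 times as many genes had a count of 4 as had, on average, a count of 3 or 5, and this ratio was 1.01 to 1.19 in the other 8 libraries. A count may therefore not stand for 1 independent read in those libraries, and the cause was not tested. Transcripts of Y-linked genes were at most 1.17 CPM (counts scaled by library size and TMM factors) in 6 untreated libraries, although all mice were labelled male. These were WT replicates 3 and 5 and KO replicates 1, 3, 4 and 5. In the other 16 libraries Y-linked transcripts lay between 77.1 and 193.9 CPM. Xist was 104.3 to 304.6 CPM in the 6 libraries. It was also 14.02 CPM in untreated WT replicate 4 and 1.65 CPM in KO replicate 2, where Y-linked transcripts were 115.7 and 77.1 CPM. Every other library with Y-linked transcripts had at most 0.268 CPM of Xist. The cause of the joint signal in WT replicate 4 and KO replicate 2 was not tested. Cpeb2 itself was 7.69 to 14.3 CPM in untreated WT libraries and 2.10 to 5.78 in KO libraries 2 to 5, but 11.7 CPM in KO replicate 1, so that library is written as the library labelled KO replicate 1. In the AAV cohort every KO library (4.33 to 5.55 CPM) was below every WT library (10.5 to 13.96 CPM) for Cpeb2, a log2 difference of −1.26. Prdm16 was 23.9 to 40.2 CPM with AAV-GFP and 45.9 to 128 CPM with AAV-PRDM16, 2.87-fold higher in WT and 2.76-fold higher in KO. The labelled tissue held its markers: 15 brown adipocyte genes summed to 4669 to 13878 CPM in untreated and 4096 to 7592 CPM in AAV libraries.

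As levels per kilobase of exon (RPKM), the members spanned a wide order in untreated BAT. Nnat was highest at 16.6 ± 17.0 RPKM (SD, n = 10), followed by Slc7a10 at 4.20 ± 3.04, Hoxc8 at 1.30 ± 0.642, Mest at 1.25 ± 1.65 and Agt at 0.582 ± 0.847. Neighbours in this order overlapped in range, and the last 3 did not differ beyond their spread. Hoxc10 (0.100 ± 0.0748), Hoxc9 (0.0267 ± 0.0199) and Tcf21 (0) were close to the detection floor. In the AAV cohort the order was Nnat at 3.68 ± 1.39 RPKM (n = 12), Hoxc8 at 1.36 ± 0.580, Slc7a10 at 0.598 ± 0.242 and Mest at 0.444 ± 0.370. Neighbours in this order overlapped in range. Agt was 0.0254 ± 0.0313 RPKM there. The cohorts were scaled separately and differ in treatment, stated fasting and library pattern, so levels set across them were not tested. Within a cohort the members differed in how far single mice spread: the highest untreated library exceeded the lowest 80.7-fold for Mest, 51.6-fold for Nnat and 51.0-fold for Agt, but 8.68-fold for Slc7a10 and 6.31-fold for Hoxc8. In the AAV cohort these ratios were 23.9 for Mest, 5.54 for Hoxc8, 3.83 for Nnat and 3.40 for Slc7a10.

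**Figure D1:**
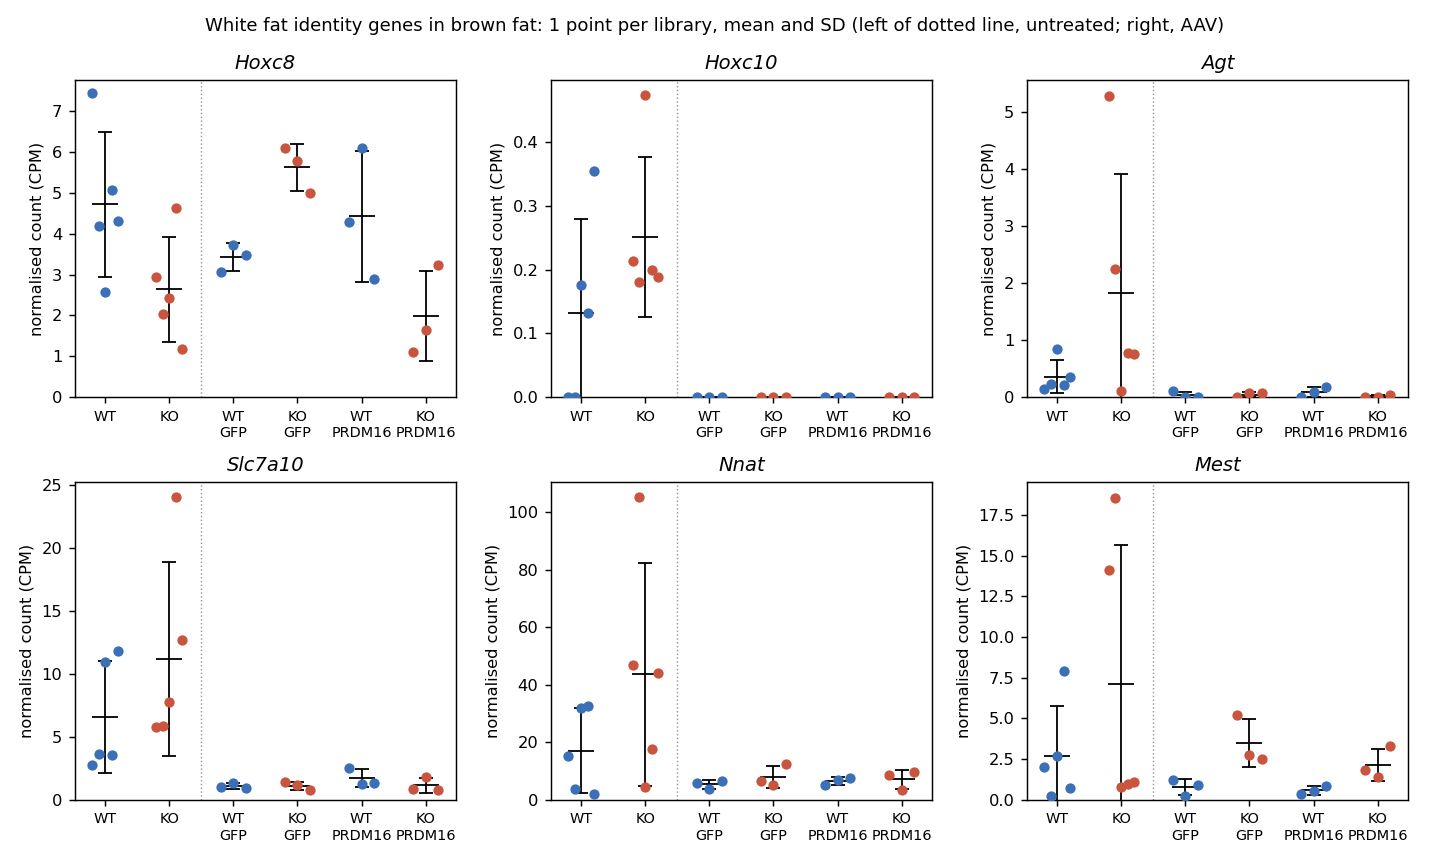
TMM-scaled CPM (vertical axes, linear) of 6 members in the 6 groups (horizontal axes), with 1 point per library and the mean with SD bars, cut at 0; untreated groups stand left of the dotted line and AAV groups right of it. In the Mest panel each KO library of the AAV cohort (1.40 to 5.18 CPM) lies above each WT library (0.217 to 1.24 CPM), and in the Hoxc8 panel the 3 libraries of KO mice with AAV-PRDM16 (1.10 to 3.22 CPM) lie below those with AAV-GFP (4.99 to 6.09 CPM).

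Hoxc8, Slc7a10, Nnat and Mest were detected in all 22 libraries, and the other 4 members were not. Tcf21, a basic helix-loop-helix factor of white preadipocytes that is absent from the brown lineage, had 0 counts in all 22 libraries, and 3 counts, the number that a count of 0 allows, corresponded to 0.0186 to 0.0596 CPM in untreated and 0.0203 to 0.0501 CPM in AAV libraries. These floors cover counting error only. Hoxc9, a posterior HOX factor and classical white depot marker, had 0 to 17 counts in untreated libraries with 2 of 10 at 0, and among 12 AAV libraries 9 were at 0 and the others had 3, 4 and 8 counts. Hoxc9 and Tcf21 did not pass the count filter in either cohort. Hoxc10, a posterior HOX factor of subcutaneous white fat, had 10 to 41 counts in 8 untreated libraries and 0 in WT replicates 1 and 2 and in all 12 AAV libraries. These were the libraries with the excess of counts of 4, and the part of that pattern in the absence of Hoxc10 was not tested. It passed the filter in the untreated cohort only.

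Hoxc8, Hoxc9 and Hoxc10 stand on mouse chromosome 15 (GRCm38, plus strand) within the HoxC cluster, at 102990607 to 102994111, 102976439 to 102985099 and 102966796 to 102971893. Hoxc13, Hoxc12 and Hoxc11, the 5′ genes, had 0 counts in all 22 libraries. Hoxc10 and Hoxc9 were at most 0.248 and 0.067 RPKM. Hoxc8 averaged 1.30 RPKM untreated and 1.36 with AAV, Hoxc6 2.42 and 4.12, and Hoxc4 2.37 and 3.72 RPKM. Hoxc5 was given 3.36 and 3.59 RPKM, although 166 bases (8.7%) of the exons of Hoxc10 lie on the same strand as exons of Hoxc5, and its gene model spans most of the cluster, so reads of Hoxc5 and its neighbours may have been split. Every library had more Hoxc8 than Hoxc9 per length, in all 6 groups.

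**Figure D2:**
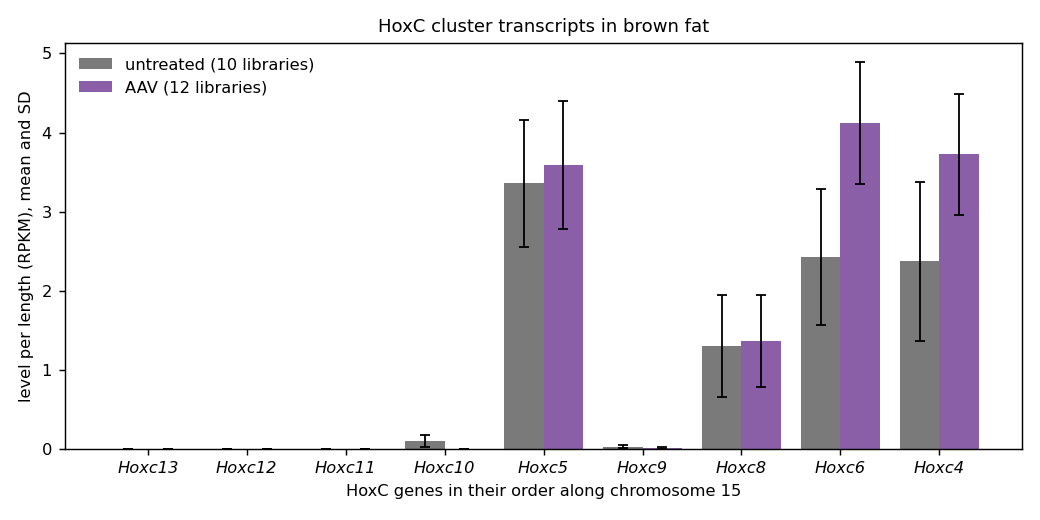
Mean RPKM with SD bars (vertical axis, linear) of 9 HoxC genes in the order in which their gene models start along chromosome 15 (horizontal axis) over 10 untreated and 12 AAV libraries. Hoxc11 to Hoxc13 were 0 in all libraries, Hoxc10 and Hoxc9 were close to 0, and Hoxc8, Hoxc6, Hoxc5 and Hoxc4 averaged between 1.30 and 4.12 RPKM.

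In untreated BAT, white fat genes were not shown to differ between CPEB2-KO and WT mice. Of the 6 members tested, 0 passed a false discovery rate (FDR) of 0.05 by edgeR's quasi-likelihood test, and 1, Agt, had an unadjusted p under 0.05. DESeq2 and limma-voom also called 0 members. The background was equally empty, with 0% of 17869 genes called and 2836 genes at an unadjusted p under 0.05. By the looser rule the study used for this cohort, at least a 2-fold change at an FDR of at most 0.5, 3 members (Agt, Nnat and Mest) were higher in KO, against 6.04% of all genes tested. That count fell to 0 without WT replicate 1, without WT replicate 2, without KO replicate 5, without both WT replicates 1 and 2, with Y-linked transcripts as a covariate, or among the libraries without Y-linked transcripts. The groups overlapped for every member, whereas they were apart for 1.4% of genes. The members' median log2 difference, KO minus WT, was 1.14, beside 0.036 over all genes, and 5 of 6 were positive. Agt, Nnat and Mest each had their 2 highest untreated values in KO replicates 1 and 2, of which replicate 1 carried a WT-like level of Cpeb2. Markers of some other cells were also high in these 2 libraries. Endothelial genes were not high in both, at 243 and 678 CPM, against 264 to 434 CPM in the other 8. Skeletal muscle genes summed to 6121 and 6768 CPM, against 8.18 to 3371 CPM in the other 8 untreated libraries, macrophage genes to 117 and 81.3 CPM, against 18.6 to 90.4 CPM, and progenitor and fibroblast genes to 285 and 448 CPM, against 126 to 362 CPM. Their part in the levels of Agt, Nnat and Mest was not tested. Without the library labelled KO replicate 1, the log2 differences of Agt, Nnat and Mest were 1.43, 1.33 and 0.98.

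Agt, angiotensinogen, is the precursor of the vasoactive angiotensins and is secreted by white adipocytes and liver. It was 0.149, 0.242, 0.852, 0.218 and 0.364 CPM in WT replicates 1 to 5 and 5.28, 2.25, 0.104, 0.774 and 0.764 CPM in KO replicates 1 to 5. The library labelled KO replicate 1, with WT-like Cpeb2, was the highest, KO replicate 3 was the lowest of all 10, and KO replicates 4 and 5 lay inside the WT range. The log2 difference was 2.34 (SE 0.85, 95% interval 0.50 to 4.18), with an unadjusted p of 0.0166 and an edgeR FDR of 0.305, and an exact permutation test over the 10 libraries (two-sided) gave p = 0.167. The markers of hepatocytes, which make most Agt of the body, summed to at most 1.41 CPM in every untreated library except KO replicate 5 (34.4 CPM, of which Ttr alone gave 34.3 CPM, with Alb and Fgb at 0), where Agt was 0.764 CPM, and to 0.544 CPM in the library labelled KO replicate 1, where Agt was highest. With AAV, Agt had 0 to 19 counts and was 0 in 6 of 12 libraries, so no comparison of it was precise.

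Nnat, neuronatin, is a small endoplasmic reticulum membrane protein whose transcript is enriched in white over brown fat. Nnat was 15.2, 3.69, 31.9, 32.7 and 2.04 CPM in WT and 46.9, 105, 4.55, 17.7 and 44.1 CPM in KO replicates. In KO, 3 libraries exceeded every WT library and the other 2 lay inside the WT range. The log2 difference of 1.35 (SE 0.82, 95% interval −0.43 to 3.14) did not pass (FDR 0.386; exact permutation p = 0.222).

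Mest, a hydrolase-fold protein of the endoplasmic reticulum that tracks fat expansion, was 1.99, 0.230, 2.72, 7.92 and 0.719 CPM in WT and 14.1, 18.5, 0.807, 0.993 and 1.10 CPM in KO. The KO mice thus split, with replicates 1 and 2 above every WT mouse and replicates 3 to 5 inside the WT range. The next highest values were in WT replicates 4 and 3 (7.92 and 2.72 CPM). By the labels, these WT mice and KO replicates 1 and 2 carry consecutive mouse numbers. WT replicate 3 was little above WT replicate 1 (1.99 CPM), and the part of a shared batch or litter in these values was not tested. Its log2 difference was 1.39 (SE 1.03, 95% interval −0.83 to 3.62; FDR 0.460; exact permutation p = 0.476).

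Slc7a10 (ASC-1), a transporter of small neutral amino acids and a surface marker of white adipocytes, was 2.77, 3.65, 10.95, 3.57 and 11.8 CPM in WT and 5.73, 5.86, 7.74, 24.0 and 12.6 CPM in KO. The highest values were in KO replicates 4 and 5 and the groups overlapped (log2 difference 0.77, SE 0.52, FDR 0.422; exact permutation p = 0.175). Its annotated exons share 377 bases (17.9%) with the opposite strand gene Lrp3, and the handling of strand in counting was not given in the sources used here.

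Hoxc8 was the only tested member with a lower mean in KO. It was 7.43, 4.17, 2.58, 5.07 and 4.30 CPM in WT and 2.94, 2.04, 2.43, 4.63 and 1.18 CPM in KO, so 3 KO libraries lay below every WT library. The log2 difference was −0.84 (SE 0.39, 95% interval −1.68 to 0.01; FDR 0.315; exact permutation p = 0.0794). Hoxc10 was 0.176, 0.132 and 0.355 CPM in WT replicates 3 to 5 and 0.180 to 0.473 CPM in the 5 KO libraries, and the log2 difference of 0.93 (SE 1.06, FDR 0.635) includes the WT replicates 1 and 2 at 0. Without those 2 libraries it was 0.25.

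**Figure D3:**
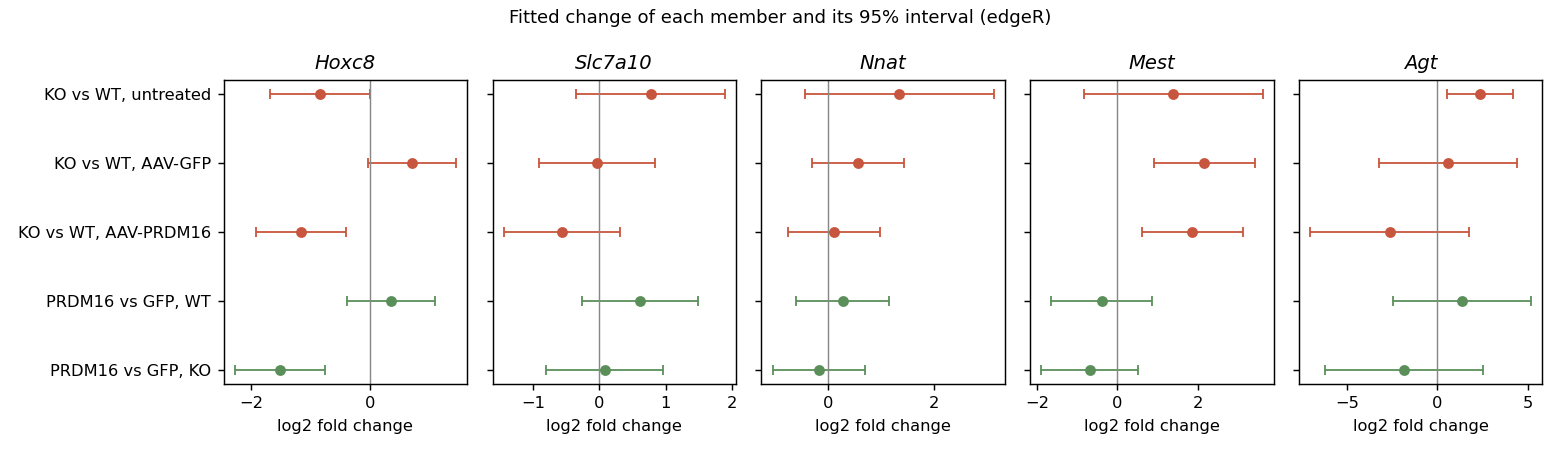
Log2 difference in CPM with its 95% interval from edgeR (horizontal axis) for 5 members in 5 comparisons, KO minus WT in 3 of them and AAV-PRDM16 minus AAV-GFP in 2. The Mest intervals lie above 0 for both AAV comparisons of genotype (0.90 to 3.42 and 0.60 to 3.14), and the Hoxc8 interval lies below 0 for AAV-PRDM16 against AAV-GFP in KO mice (−2.28 to −0.75).

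In the AAV cohort, Mest was the member that differed with CPEB2. Mest was 1.24, 0.217 and 0.883 CPM in WT mice with AAV-GFP, 0.328, 0.564 and 0.867 CPM in WT mice with AAV-PRDM16, 5.18, 2.74 and 2.51 CPM in KO mice with AAV-GFP and 1.82, 1.40 and 3.27 CPM in KO mice with AAV-PRDM16. All 6 KO libraries lay above all 6 WT libraries. The WT libraries held 28 to 138 counts of Mest and the KO libraries 151 to 362, where a count may not stand for 1 independent read. Averaged over both viruses, Mest was higher in KO by 2.01 on the log2 scale (SE 0.41, 95% interval 1.12 to 2.91; 4.04-fold), with an edgeR FDR of 0.0317, and an exact permutation test within viruses gave p = 0.005, the smallest that 400 relabelings allow. It was 1 of 5 members tested, while 1.06% of all 18899 genes were higher at this FDR and 1.13% had every KO library above every WT library. The other members did not share this difference: the members' median was −0.23, beside 0.010 over all genes, and only 2 of 5 were positive. The FDR of Mest ranged from 0.0335 to 0.0867 as each library was left out in turn while its log2 difference stayed between 1.79 and 2.26. The FDR was above 0.05 in 7 of these 12 fits, at 0.0729 without WT + AAV-GFP replicate 3, 0.0867, 0.0654 and 0.0553 without WT + AAV-PRDM16 replicates 1, 2 and 3, 0.0602 without KO + AAV-GFP replicate 2, and 0.0779 and 0.0709 without KO + AAV-PRDM16 replicates 1 and 3.

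Within each virus Mest also separated the genotypes. The log2 difference was 2.16 with AAV-GFP (SE 0.58, 95% interval 0.90 to 3.42) and 1.87 with AAV-PRDM16 (SE 0.58, 95% interval 0.60 to 3.14), but the edgeR FDR was 0.295 and 0.202. With 3 libraries against 3, edgeR called 0.0529% of genes with AAV-GFP and 0.0476% with AAV-PRDM16. Every KO library was above every WT library for 2 of 5 members with AAV-GFP, Mest and Hoxc8, and for 1 of 5, Mest, with AAV-PRDM16, beside 6.51% and 11.5% of all genes. The difference between these 2 values did not pass (interaction −0.29, SE 0.80, edgeR FDR 1.0). DESeq2 gave Mest an FDR of 0.0136 and 0.0310 in these comparisons.

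The Mest gene lies on chromosome 6 at 30723547 to 30748465 (plus strand), and 912 bases (23.1%) of its exons overlap the opposite strand gene Copg2. Copg2, a subunit of the coatomer coat, averaged 25.0 CPM in KO and 24.8 CPM in WT libraries of the AAV cohort, a log2 difference of 0.0095 (SE 0.091). In the untreated cohort Copg2 was 11.7 CPM in KO and 20.1 CPM in WT, the opposite direction to Mest (log2 difference −0.78, FDR 0.305). Blcap, in whose intron Nnat lies, did not pass either (log2 difference 0.15 with AAV, FDR 0.5, and 0.37 untreated, FDR 0.435).

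The other members did not pass between genotypes in the AAV cohort. Hoxc8 had a log2 difference of −0.23 (SE 0.24), Slc7a10 −0.30 (SE 0.28), Nnat 0.35 (SE 0.28) and Agt −1.05 (SE 1.34) averaged over both viruses, with edgeR FDRs between 0.574 and 0.739. Slc7a10 stayed between 0.750 and 2.55 CPM and Nnat between 3.22 and 12.3 CPM in all 12 libraries, and the 4 groups of each overlapped.

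No lowering of the white fat genes by AAV-PRDM16 was detected across the members. Prdm16 itself, 2.82-fold higher averaged over both genotypes, did not pass by edgeR (FDR 0.0527), so smaller changes could be missed. With AAV-PRDM16 against AAV-GFP, averaged over both genotypes, 0 of 5 members passed by edgeR, DESeq2 or limma-voom, 1 (Hoxc8) had an unadjusted p under 0.05, and 0.037% of all genes passed by edgeR. The members' median log2 difference was −0.24, with 2 positive and 3 negative, beside −0.0067 over all genes, and exact permutation tests gave p between 0.17 (Hoxc8) and 0.91 (Agt). In WT mice 0 members passed and 0 had an unadjusted p under 0.05, where edgeR called 0% of genes, DESeq2 called 152 and 1377 had an unadjusted p under 0.05. There 4 of 5 members were positive, with Slc7a10 at 0.62 (SE 0.40), Hoxc8 at 0.37 (SE 0.34) and Nnat at 0.29 (SE 0.40), and Mest was −0.40 (SE 0.57). In KO mice edgeR again called 0 members and 0% of genes, with 1211 genes at an unadjusted p under 0.05 and 266 called by DESeq2, and 4 of 5 members were negative. Mest had a log2 difference of −0.69 (SE 0.56, FDR 1.0) in KO mice, and its values with AAV-PRDM16 stayed above all WT values.

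Hoxc8 was the member with the largest difference after AAV-PRDM16 in KO mice relative to its error. Hoxc8 was 3.07, 3.73 and 3.49 CPM in WT mice with AAV-GFP, 4.27, 6.08 and 2.90 CPM in WT mice with AAV-PRDM16, 6.09, 5.78 and 4.99 CPM in KO mice with AAV-GFP and 1.10, 1.64 and 3.22 CPM in KO mice with AAV-PRDM16. In KO mice the 2 viruses did not overlap, with AAV-PRDM16 lower, which held for 6.05% of all genes and for 1 of 5 members. The log2 difference was −1.51 (SE 0.35, 95% interval −2.28 to −0.75), with an unadjusted p of 0.00101 and an edgeR FDR of 0.307, while DESeq2 gave an FDR of 0.00524. With AAV-PRDM16, Hoxc8 was also lower in KO than in WT (log2 difference −1.17, SE 0.35, edgeR FDR 0.184, overlapping groups), and with AAV-GFP it was higher in KO (0.71, SE 0.34, edgeR FDR 0.574). The interaction of genotype and virus was −1.88 (SE 0.49, 95% interval −2.94 to −0.81), ranked 17 among 18899 genes, and did not pass (unadjusted p = 0.00232, edgeR FDR 1.0; 0% of genes passed and 603 had an unadjusted p under 0.05). These comparisons share libraries and are not independent of each other. In the comparison of viruses in KO mice, its neighbours on the cluster had log2 differences of −0.18 (SE 0.20) for Hoxc6, 0.056 (SE 0.27) for Hoxc5 and −0.38 (SE 0.22) for Hoxc4, each at an edgeR FDR of 1.0.

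Other genes linked to white fat were taken as a list of 9, of which 8 were tested. In the AAV cohort 1 was higher in KO at an FDR of 0.05 by edgeR, Psat1, an enzyme of serine synthesis (mean 2.63 CPM in KO and 1.48 in WT, log2 difference 0.82, FDR 0.0378). Lep, which encodes leptin, averaged 109 CPM in KO and 29.0 CPM in WT (log2 difference 1.90, SE 0.51, FDR 0.0756), Npr3, the clearance receptor for natriuretic peptides, had a log2 difference of 0.996 (FDR 0.113), and Rarres2, which encodes chemerin, 0.75 (FDR 0.186). Retn, which encodes resistin, was −0.23 (FDR 0.670). The median of the list was 0.72, with 5 of 8 positive. In the untreated cohort 0 of 8 passed and 0 had an unadjusted p under 0.05, and between the viruses 0 passed as well, with 0 at an unadjusted p under 0.05. Among 12 other imprinted growth genes, Grb10, an adaptor that restrains insulin signalling, was higher in KO with AAV (14.1 against 8.80 CPM, log2 difference 0.68, FDR 0.0186). It was the only one of the 12 to pass, and Dlk1, a preadipocyte factor, H19 and Peg3 had FDRs between 0.589 and 0.898.

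Some markers of other cells also differed between the genotypes of the AAV cohort. Of 9 progenitor and fibroblast genes, all 9 had a positive log2 difference and 2 were higher at an FDR of 0.05, Cd34 (0.99, FDR 0.0145) and Col1a1 (0.72, FDR 0.0484). Their summed level was 186 to 277 CPM in KO mice with AAV-GFP and 161 to 229 CPM in KO mice with AAV-PRDM16, against 122 to 175 and 110 to 145 CPM in WT mice. Of 5 macrophage genes 3 were higher, Csf1r (1.02, FDR 0.0349), Mrc1 (0.88, FDR 0.0264) and Cd163 (1.23, FDR 0.0095), and the sum was 46.3 to 98.4 and 35 to 38 CPM in KO against 21.2 to 34.3 and 16.9 to 19.6 CPM in WT. Of 15 brown adipocyte genes 3 were lower in KO, Cox8b (−0.66, FDR 0.0189), Cidea (−0.39, FDR 0.0378) and Cox7a1 (−0.63, FDR 0.0145). In that list 11 differences were negative and 4 positive, with a median of −0.16. Among all 18899 genes, 412 passed in this comparison, of which 200 (1.06% of all) were higher in KO. The part of these cells in the Mest difference was not tested. In the untreated cohort 0 genes of these 3 lists passed, with 0 progenitor, 0 macrophage and 3 brown adipocyte genes at an unadjusted p under 0.05, and skeletal muscle markers summed to between 8.18 and 6768 CPM across its libraries, from 15.2 to 3371 CPM in WT and from 8.18 to 6768 CPM in KO.

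Likeness of pattern was described by the correlation of log2 CPM over the 22 libraries after each cohort was centred on its own mean, among 10993 genes. The genes closest to Mest were Map4, which encodes a microtubule-associated protein (r = 0.92), Fam124a (r = 0.91) and Dpt, which encodes the matrix protein dermatopontin (r = 0.91). For Nnat they were Sncg (r = 0.89), Lbp (r = 0.88) and Srpx2 (r = 0.86), for Slc7a10 Pop7 (r = 0.87), Cars2 (r = 0.85) and Ppp1r1a (r = 0.84), for Hoxc8 Ndufaf4 (r = 0.72), Nol11 (r = 0.71) and Lactb (r = 0.70), and for Agt Il1r1 (r = 0.73), Tbx15 (r = 0.71) and Lmcd1 (r = 0.71). These are descriptions over libraries that share cohorts, groups and depth. Mest and Lep had Pearson's r = 0.95 and Spearman's rho = 0.95 over 10 untreated libraries and r = 0.79 and rho = 0.83 over 12 AAV libraries, and without the 2 libraries farthest from the median r was 0.93 and 0.89. Lep was 193.2 and 155 CPM in KO replicates 1 and 2 and 10.1 to 12.2 CPM in KO replicates 3 to 5, the same division of KO mice as Mest, and 2.92 to 168 CPM in WT. Mest and Nnat had r = 0.81 untreated and 0.46 with AAV, and 0.69 and 0.35 without the 2 libraries farthest from the median. Both were highest in untreated KO replicates 1 and 2. KO replicate 5 was high for Nnat (44.1 CPM) but not for Mest (1.10 CPM).

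**Figure D4:**
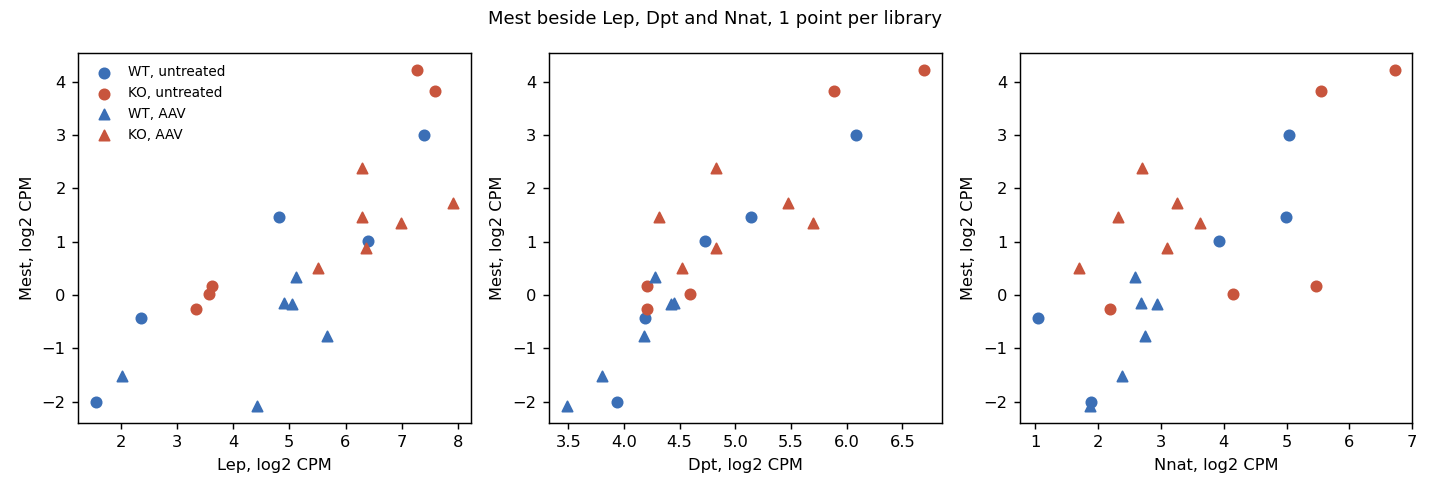
Log2 CPM of Mest (vertical axes) against log2 CPM of Lep, Dpt and Nnat (horizontal axes), with 1 point per library coloured by group, over 22 libraries. Mest rises with Lep and Dpt in both cohorts (r = 0.95 and 0.96 untreated, 0.79 and 0.80 with AAV), and with Nnat less in the AAV cohort (r = 0.46).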

How the data were processed

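Total RNA was isolated from BAT with TRIzol and libraries were made with the SureSelect XT HS2 mRNA kit. Per the labels, the authors demultiplexed reads with bcl2fastq 2.20, trimmed them with Trimmomatic 0.36 and aligned them to GRCm38.p6 with HISAT2. The authors deposited raw read counts per gene, whole numbers by Ensembl identifier, with no normalization. The counting tool, annotation release, use of strand and of molecular barcodes were not given in the sources used here. If strand was ignored, genes that overlap on opposite strands share reads, and if duplicates were kept, counts overstate depth.

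Each cohort was fitted separately in edgeR 4.0.16 (R 4.3.3) with TMM scaling, filterByExpr and the quasi-likelihood F test, and p-values were adjusted by Benjamini-Hochberg over all 17869 (untreated) or 18899 (AAV) genes. The untreated design had genotype, and the AAV design had the 4 groups, with contrasts within viruses, within genotypes, averaged and for the interaction. CPM were TMM-scaled, and RPKM used exon-union lengths of a GRCm38 annotation. Exact permutation tests on log2 CPM (two-sided) used every relabeling of libraries. On simulated counts for the untreated comparison (17869 genes), 49% of genes changed by 2 on the log2 scale and 2% of those changed by 1 were recovered, and for KO against WT with AAV-GFP (18899 genes) 61% and 38%. DESeq2 1.42.0, limma 3.58.1 (voom), other scaling and filters, left-out libraries and Y-linked transcripts as a covariate or restriction were alternatives, of which the restriction to libraries without Y-linked transcripts was added after seeing the data. No 2 libraries of the same group were copies of each other, and libraries of different groups were not compared in this way. The labels number replicates within groups and also give each mouse a number. In the AAV cohort the mouse numbers 64 and 65 each occur in a WT and in a KO group, so the number alone does not identify a mouse. Where nothing states a separate origin, p-values measure the spread between these samples. Named genes were the 8 members, the fixed lists, and the 3 genes closest in pattern to each member. The members and lists were chosen with earlier results of these data known.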

Additional observations from a re-analysis of the deposited data

Results flagged for a closer look

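In 14 groups of at least 4 libraries tested for a single library far from the rest, 1 was found: Hoxc10 in untreated KO replicate 3 was 0.473 CPM (41 counts), while the other 4 KO libraries were 0.180 to 0.214 CPM. Chance alone would mark about 1 in 20 such groups.

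The effect of AAV-PRDM16 on Hoxc8 differed between the genotypes by the unadjusted test of the interaction, −1.88 on the log2 scale (SE 0.49), but the edgeR FDR over all genes was 1.0.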

How the results depend on the processing

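Of 651 log2 differences of members under the alternatives, 613 kept their direction and side of the threshold, 7 lost and 5 gained a call, and 26 changed sign. The number of members called in KO against WT rose from 0 to 1 with AAV-GFP (Mest, DESeq2) and to 2 (Hoxc8 and Mest, DESeq2) or 1 (Hoxc8, limma-voom) with AAV-PRDM16, and that for AAV-PRDM16 in KO mice to 1 (Hoxc8, DESeq2). Averaged over viruses it was 0 to 1 with single libraries left out, and 0 without WT + AAV-GFP replicate 3, any of the WT + AAV-PRDM16 replicates 1, 2 and 3, KO + AAV-GFP replicate 2, or KO + AAV-PRDM16 replicates 1 and 3. The other alternatives kept the call of Mest (FDR 4.21e-05 to 0.0339). With limma-voom the sign changed for Slc7a10 in KO against WT with AAV-GFP (0.0070), for Nnat in KO against WT with AAV-PRDM16 (−0.048), for Slc7a10 (−0.038) and Nnat (0.082) with AAV-PRDM16 in KO, and for Agt between viruses averaged over genotypes (0.012). With the replicate block, Nnat in KO against WT with AAV-PRDM16 was −0.010. Same-numbered replicates did not deviate together (r between −0.292 and 0.154 over 23 pairs). These numbers give only the order within a group, so a shared litter or batch was not tested. The block turned no other difference. It changed no call of a member, and moved the genes called from 10 to 1 (genotype, AAV-GFP), from 9 to 5 (genotype, AAV-PRDM16) and from 7 to 2 (virus, averaged). With single libraries left out, the differences that changed sign ranged as follows: between viruses averaged over genotypes from −2.08 to 0.11 for Agt and from −0.076 to 0.29 for Nnat, with AAV-PRDM16 in WT from −0.85 to 0.10 for Mest, with AAV-PRDM16 in KO from −0.44 to 0.30 for Nnat and from −0.44 to 0.31 for Slc7a10, in KO against WT with AAV-GFP from −0.048 to 1.07 for Agt and from −0.23 to 0.18 for Slc7a10, and in KO against WT with AAV-PRDM16 from −0.15 to 0.47 for Nnat. The cause was not tested. The number of all genes called was 412 averaged over viruses by edgeR, 1584 by DESeq2, 1269 by limma-voom, 250 with no filter and 89 to 590 with single libraries left out, and between viruses it was 7, with 602 by DESeq2, 76 with RLE scaling, 144 with no filter, 0 with a filter at 0.5 CPM and 0 to 352 with single libraries left out. With AAV-GFP DESeq2 called 243 genes between genotypes, and with AAV-PRDM16 DESeq2 called 619 and limma-voom 545, and with single libraries left out edgeR called 0 to 8 and 0 to 15. Leaving out WT replicates 1 and 2 of the untreated cohort gave log2 differences of −0.54 for Hoxc8, 1.96 for Agt, 0.41 for Slc7a10, 1.01 for Nnat and 0.95 for Mest, with Y-linked transcripts as a covariate −0.69, 2.26, 0.39, 1.46 and 1.75, and in libraries without them −0.29, 1.51, 0.16, 0.76 and 1.30. Depth does not limit the detection of Hoxc8, Slc7a10, Nnat and Mest, and limits that of Hoxc9, Hoxc10, Tcf21 and, with AAV, Agt. The counts of Mest in AAV WT libraries (28 to 138) and of Slc7a10 in AAV libraries (45 to 218) were low.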
